A study of Danio rerio with 12 samples.

Results

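Macrophages and microglia were sorted as mCherry-positive cells from the eyes of zebrafish larvae 2 days post-injury (dpi), with or without prior loss of the RPE (retinal pigment epithelium), a sheet of pigmented cells on which the photoreceptors depend. The 6 libraries of that time were taken, by the treatment and time in the sample labels, from the 12 libraries of the series. In 3 of them the RPE had been ablated genetically, with larvae kept in 10 mM metronidazole (MTZ) between days 5 and 6 after fertilisation, 24 h in all. The titles of replicate 2 give an age of 7 days post-fertilisation. The other 3 came from unablated larvae without MTZ, so drug and ablation cannot be told apart. All larvae, controls included, had been depigmented with phenylthiourea from 0.25 to 5 days post-fertilisation. Each library came from a sort of at most 1000 cells pooled from dissociated eyes. The labels name neither the transgene behind the ablation nor the one that carries mCherry, and they do not say that replicates came from separate clutches, so a p-value here sets the difference against a spread between samples that may be technical. Every unablated library had an ablated partner with the same replicate number and the same date in its title, and the comparison was made within these 3 dates, called here dates 1, 2 and 3 after the replicate numbers.

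Macrophages clear dying cells, release cytokines and matrix proteins, and can multiply locally or be joined by cells from the blood. Microglia are the resident macrophages of the retina, known for survey of neurons and for engulfing debris. In zebrafish, unlike mammals, a lost RPE can grow back, and macrophages and microglia gather at the injured layer. The comparison asks which genes the sorted cells expressed at another level after the RPE was lost.

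Library totals ran from 19791633 to 38935355 counts, with 16299 to 19601 genes detected. Retinal RNA was unequal among them. Photoreceptor genes gave 15.8%, 13.7% and 0.0943% of all counts in unablated replicates 1, 2 and 3. In the ablated libraries of the same dates they gave 2.00%, 0.294% and 0.0748%. The pair of date 3 was therefore low in photoreceptor RNA on both sides, while the pairs of dates 1 and 2 were far apart. Epithelial genes followed another order, with 0.138%, 0.783% and 2.19% of counts in the unablated libraries and 0.178%, 0.0835% and 0.553% in the ablated ones, which left date 1 as the pair close in epithelial RNA. Mitochondrially encoded genes gave 2.98% to 3.57% in all 6, and 3 of the 13 tested were higher and 2 lower in all 3 dates (0 and 7 with DESeq2's size factors). These shares count RNA of the whole sort, in which fewer cells of a type and less RNA per cell cannot be told apart.

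**Figure D1:**
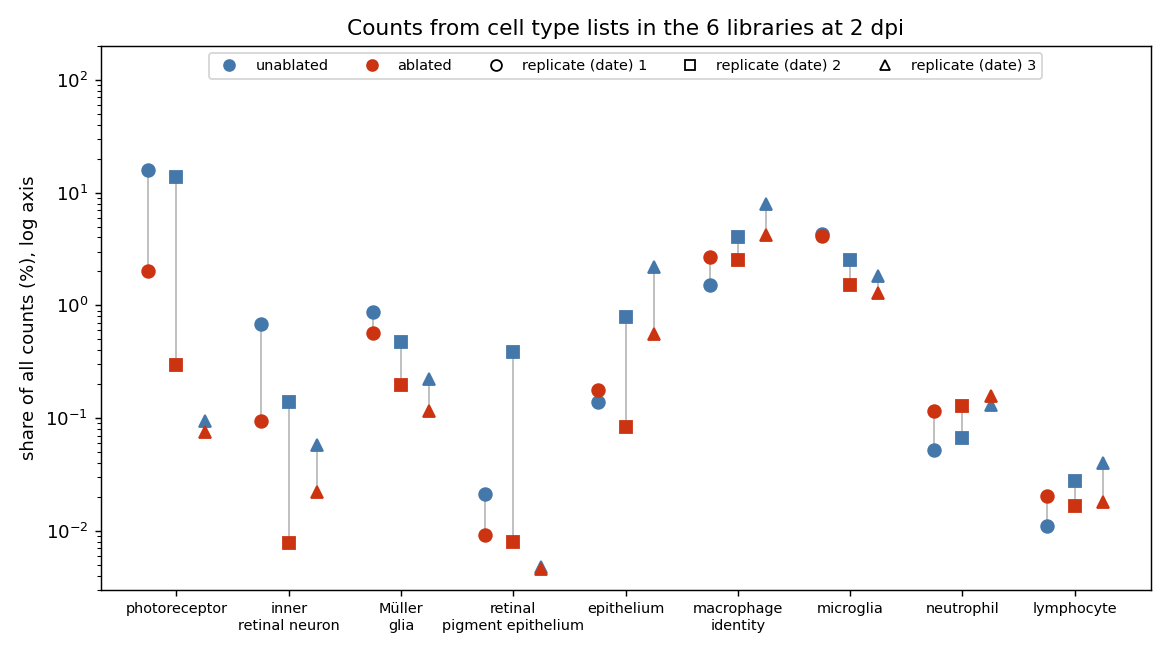
Share of all counts (percent, log axis) that came from each cell type list in the 6 libraries at 2 dpi, with blue for unablated and red for ablated libraries, the symbol for the replicate or date, and a grey line joining the pair of a date. The photoreceptor shares of dates 1 and 2 are joined by long lines (15.8% to 2.00% and 13.7% to 0.294%), and that of date 3 by a short one (0.0943% to 0.0748%).

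rpe65a (ENSDARG00000007480, GRCz11 chromosome 2, 1428696 to 1443692), the gene of the isomerase that regenerates visual pigment in the RPE, gave 28, 6482 and 99 counts in unablated replicates 1 to 3 and 1, 3 and 0 counts in the ablated ones. Each ablated library held fewer of these counts than its partner, and nearly all of them came from unablated replicate 2. The retinaldehyde-binding gene rlbp1b stood at 56.7, 929 and 0 CPM (counts scaled to library size and composition by TMM) in the unablated and 0.521, 0.245 and 0 CPM in the ablated libraries. Macrophage genes were abundant throughout. The pore-forming macrophage gene mpeg1.1 (ENSDARG00000055290, chromosome 8, 29710110 to 29713621) stood at 1619, 2481 and 2511 CPM in the unablated and 2589, 2182 and 1834 CPM in the ablated libraries, in overlapping groups (log2 fold change 0.01, standard error 0.27). Its sign turned in 7 of the alternative settings, reaching -0.33. Among the genes of the macrophage identity list was grn2, singled out after its values were seen, at 2825, 24973 and 57139 CPM in the unablated and 2749, 198 and 16443 CPM in the ablated libraries. Apart from the pair of date 1, it ordered the libraries as the epithelial adhesion gene epcam did, which stood at 170, 1136 and 3494 CPM in the unablated and 213, 32.2 and 843 CPM in the ablated libraries.

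No single gene passed the main test. edgeR's quasi-likelihood test with the date as a block and Benjamini-Hochberg adjustment called 0 of 16048 genes (0.0% higher, 0.0% lower; smallest adjusted p = 0.100), with 2 residual degrees of freedom. At an unadjusted p under 0.05 it listed 2049 higher genes (12.8%) and 1585 lower genes (9.88%), a split of 56.4% higher that became 43.3% with DESeq2's size factors. The other tools did call genes within dates. DESeq2 called 1340 higher and 2106 lower, limma voom with quality weights 1156 and 1152, and limma on log2(TPM + 1) 1161 and 221. With all 12 libraries of the series in 1 edgeR fit, which brought 6 residual degrees of freedom, 1420 genes (7.85% of 18079) passed as higher after ablation at 2 dpi and 324 (1.79%) as lower. Levels below are CPM, log2 fold changes (ablated over unablated, ± standard error, SE) come from the fit of the 6 libraries, and folds within dates are ratios of CPM + 0.5. Each SE was back-computed as the absolute log2 fold change over the square root of the F statistic of the test. Where a gene is said to have passed, it passed in the 12-library fit at an adjusted p under 0.05. The 2 dpi pairs gave 2 of the 6 residual degrees of freedom of that fit. The rest came from the libraries of 4 dpi, all of 1 date, so a pass sets the 2 dpi difference largely against their spread.

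The sign of the difference within dates was the main description of gene groups. The gene lists were chosen with earlier results of these data known. Their counts therefore describe these libraries and are not independent support. The same holds for single genes named from the lists, some of which were picked by a small p in these libraries. The fit in which a gene passed holds these libraries too. For genes named from the lists, neither groups without overlap nor passing is therefore independent support. Of all genes tested, 26.7% were higher in the ablated library in all 3 dates and 21.3% were lower in all 3. These were 4280 and 3414 of 16048 genes. They became 3435 and 4180 with DESeq2's size factors, and 3803 and 3860 with photoreceptor genes left out of the library sizes. List counts given below with those scalings stand beside these counts, since all genes shifted too. At least 2-fold differences in all 3 dates, a rule added after the data were seen, were found for 4.7% of genes upward and 4.42% downward. The log2 ratios of date 1 correlated across genes with those of date 2 at r = 0.64 and with those of date 3 at r = 0.29, and those of dates 2 and 3 at r = 0.40. Genes are not independent replicates, and dates 1 and 2 also shared the drop in photoreceptor share. The scaling shifted the median log2 fold change of all genes by -0.16 with DESeq2's size factors, and limma on TPM put it at 0.18, against -0.02 here.

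The 15 genes with the smallest p among those higher in all 3 dates encode proteins of varied function. Their log2 fold changes ran from 1.67 to 3.81. For all 15 every ablated library lay above every unablated one, and all 15 passed in the 12-library fit, in DESeq2, in voom and in limma on TPM, while 0 passed in edgeR without the date block. All of these fits hold the libraries by which the 15 were ranked, so neither the separation nor the passing is independent support. The share of all genes tested that were separated in this way is not given here. s100a10b (ENSDARG00000025254, chromosome 16, 23397785 to 23399484), the light chain of the annexin A2 complex that links membrane to actin, stood at 52.1, 134 and 50.1 CPM in the unablated and 499, 1424 and 683 CPM in the ablated libraries. That was 9.51- to 13.5-fold higher within dates (log2 fold change 3.48 ± 0.20). f13a1b (ENSDARG00000036893, chromosome 7, 8267985 to 8344243), the coagulation factor XIII subunit that crosslinks fibrin, stood at 58.2, 153 and 211 CPM in the unablated and 637, 1506 and 1588 CPM in the ablated libraries (3.22 ± 0.20). Unablated replicate 3 had the most of it among controls and still lay below the lowest ablated library.

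The partner of s100a10b, anxa2a, was lower still in the controls. It stood at 5.09, 0.158 and 3.84 CPM without ablation and 128, 286 and 269 CPM after it (6.62 ± 1.36), and it passed. The scaffold gene ahnak, whose product binds that complex, stood at 4.26, 10.7 and 7.82 CPM against 41.7, 80.3 and 74.3 CPM (3.15 ± 0.25). Each of these 3 genes was separated between the groups. s100a10b and ahnak were among the 15 picked by their small p, and anxa2a was named with the same libraries known. None of the 3 separations is therefore independent support. The actin linker moesin, msna, stood at 137, 220 and 234 CPM against 476, 692 and 742 CPM (1.71 ± 0.16). rnd3a, a small GTPase that loosens actin fibres, varied little among replicates, with 62.5, 58.9 and 62.6 CPM against 240, 240 and 258 CPM (2.00 ± 0.17). ptgr1, which inactivates prostaglandins and leukotriene B4, was as even, at 47.1, 46.6 and 50.4 CPM against 188, 182 and 183 CPM (1.94 ± 0.18). The controls of both lay in a narrow range, well below the ablated libraries. The matrix protein gene tgfbi (2.44 ± 0.23), the scramblase gene plscr3b (2.25 ± 0.22), the α-tubulin gene tuba1b (2.28 ± 0.19), the translation helicase gene eif4a1a (1.67 ± 0.15) and prr11 (3.81 ± 0.34), a gene of cell cycle progression, were also among the 15, as were ccna2, cdc25b, npm3 and shmt1, which are described with their lists.

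**Figure D2:**
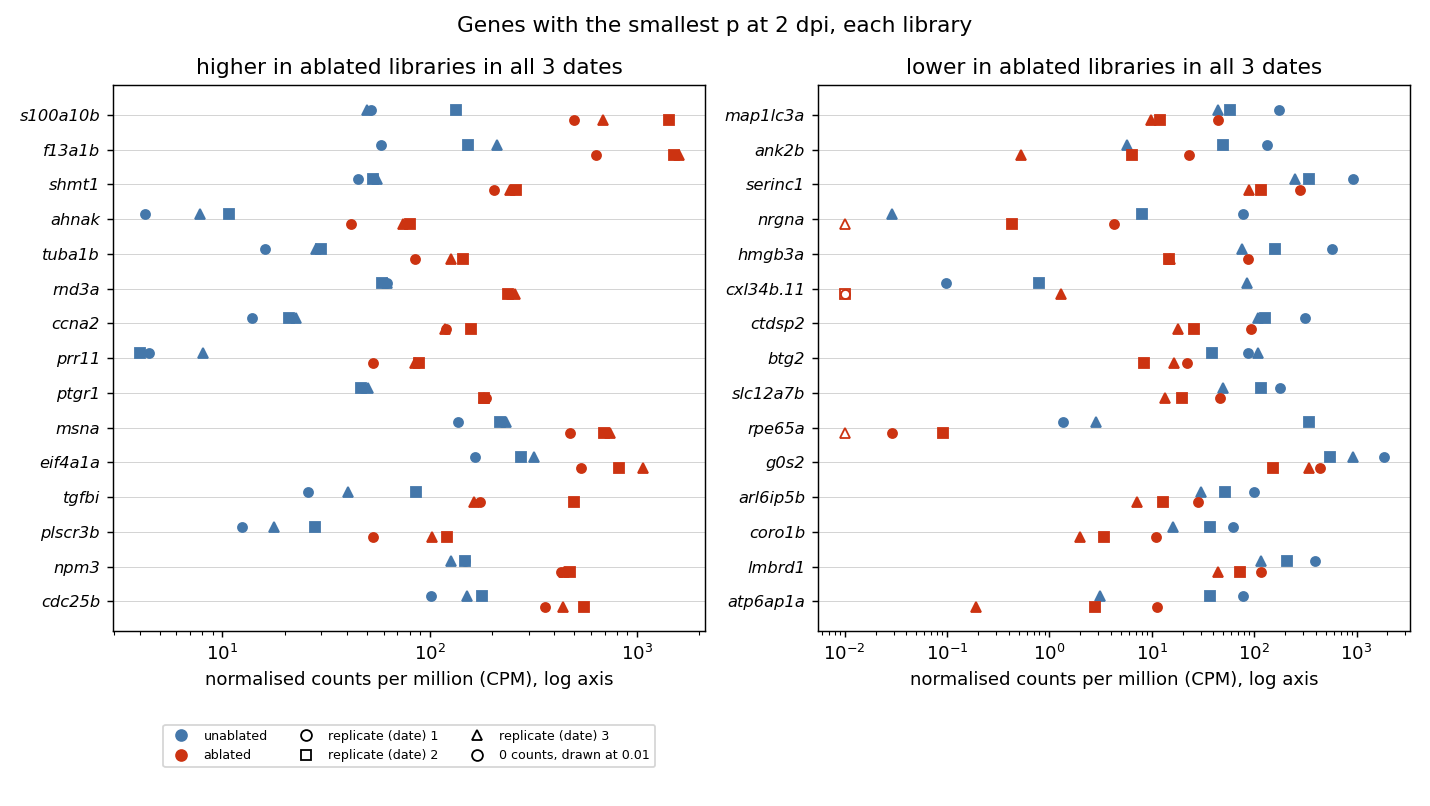
Normalised counts (CPM, log axis) of the 15 genes with the smallest p among those higher (left) and among those lower (right) in the ablated library in all 3 dates, one row per gene, with blue for unablated and red for ablated libraries and the symbol for the date; open symbols at 0.01 stand for 0 counts. All 15 genes on the left have separated groups, and 7 of the 15 on the right have overlapping ones.

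Cell division genes were higher after ablation in every date. Of 59 tested genes of mitosis, 59 were higher in the ablated library in all 3 dates, and 52 by at least 2-fold. Their median log2 fold change was 2.46, with medians of 2.71, 2.62 and 1.86 within dates 1, 2 and 3. The list gave 0.0591%, 0.100% and 0.147% of counts in the unablated and 0.398%, 0.622% and 0.544% in the ablated libraries. Each ablated library thus held a larger share than its partner. The photoreceptor and epithelial shares differed between the partners as given above, and their part in this was not tested. In the 12-library fit 15 of the 59 passed, all of them higher.

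ccna2 (ENSDARG00000011094, chromosome 14, 46354648 to 46374870), the cyclin of S phase and mitotic entry, stood at 13.9, 21 and 22.7 CPM in the unablated and 121, 158 and 118 CPM in the ablated libraries (2.80 ± 0.25). mki67, which marks cycling cells (ENSDARG00000091150, chromosome 12, 10366617 to 10381282), had 10.9, 48.4 and 40.9 CPM against 90.4, 221 and 231 CPM (2.58 ± 0.26). Both were separated between the groups, and both passed. The mitotic kinase gene cdk1 stood at 36.9, 54.7 and 80.6 CPM against 313, 410 and 333 CPM (2.68 ± 0.28), yet its adjusted p in the 12-library fit was 0.180. ccnb1, the cyclin that activates it, was 5.39- to 15.1-fold higher within dates (3.02 ± 0.40). The phosphatase gene cdc25b, which drives mitotic entry, was 2.92- to 3.53-fold higher (1.67 ± 0.17). The spindle genes nusap1 (2.25 ± 0.22) and kifc1 (1.92 ± 0.21) and the checkpoint kinase gene ttk (2.32 ± 0.25) were higher in all 3 dates and did not pass.

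Genes of DNA replication and of deoxynucleotide supply went with them. Of 45 tested replication genes, 43 were higher in all 3 dates and 0 lower in all 3, with a median log2 fold change of 1.65, and 23 passed as higher. Of 12 nucleotide supply genes, 11 were higher in all 3 dates (median 2.26), and 7 passed. The sliding clamp gene pcna (ENSDARG00000054155, chromosome 10, 40821804 to 40826657) stood at 164, 345 and 178 CPM in the unablated and 933, 1058 and 679 CPM in the ablated libraries (2.02 ± 0.24). rrm1 (ENSDARG00000014017, chromosome 21, 30772043 to 30787414), the large subunit of ribonucleotide reductase, stood at 23.6, 81.5 and 37.9 CPM against 193, 319 and 245 CPM (2.57 ± 0.28). Unablated replicate 2 had the most of both among controls. The single-strand binding gene rpa2 (2.02 ± 0.22), the clamp loader gene rfc3 (1.78 ± 0.22), dut (2.25 ± 0.29), dhfr (2.34 ± 0.30), dtymk (3.00 ± 0.51) and cad (2.27 ± 0.38), the last 4 of them enzymes of nucleotide synthesis, passed. The chromatin assembly gene chaf1b (2.44 ± 0.29) and the thymidylate synthase gene tyms (3.00 ± 0.39) did not. The helicase genes mcm2 (1.15 ± 0.24) and mcm5 (1.4 ± 0.33) had smaller ratios in date 3 (log2 0.70 and 0.63) than in date 1 (1.62 and 2.03).

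The entry into S phase was less uniform. Of 19 tested genes of G1/S control, 10 were higher and 1 was lower in all 3 dates (median 0.88). The kinase gene cdk2 stood at 22.3, 18.8 and 38 CPM against 128, 112 and 70.5 CPM (2.00 ± 0.44) and passed. The repressor gene e2f8, itself a target of the S phase programme, stood at 3.57, 6.10 and 9.92 CPM against 21.5, 34.9 and 24.8 CPM (2.14 ± 0.42) and did not pass. The 1 gene lower in all 3 dates was cdkn1bb, which encodes a p27 inhibitor of cyclin-dependent kinases. It stood at 100, 74.2 and 93.9 CPM in the unablated and 52.6, 24.0 and 34.5 CPM in the ablated libraries (-1.33 ± 0.23), with no overlap, and it passed.

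**Figure D3:**
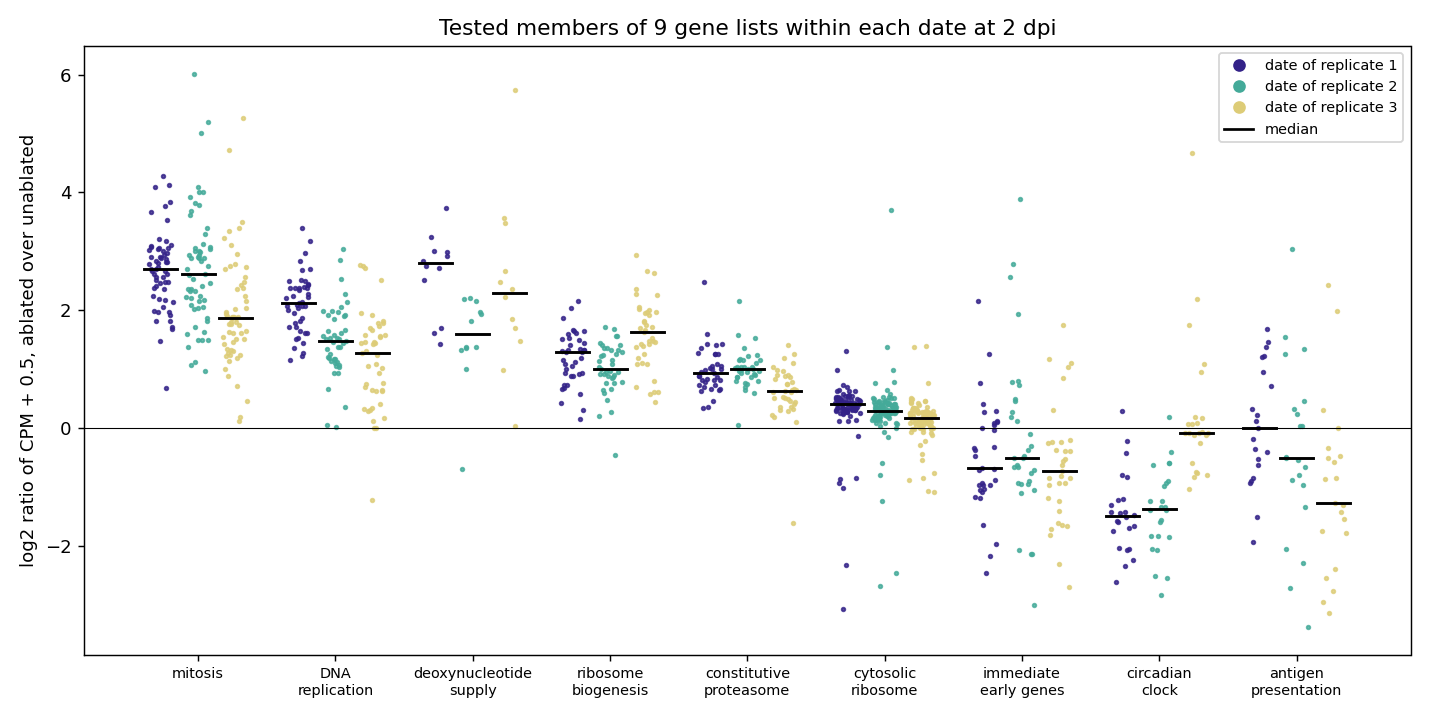
Log2 ratio of CPM + 0.5, ablated over unablated, for every tested member of 9 gene lists (points) within each of the 3 dates (colours), with the median of each as a black bar. The mitosis medians are 2.71, 2.62 and 1.86, those of the circadian clock -1.49, -1.36 and -0.08, and those of antigen presentation run from 0.00 in date 1 to -1.26 in date 3.

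Genes for making ribosomes were higher as well. Of 39 tested genes of ribosome biogenesis, 38 were higher in all 3 dates, with a median log2 fold change of 1.35 and medians of 1.29, 1.00 and 1.63 within dates. In the 12-library fit 34 passed, more than in the mitosis list, and all were higher. npm3 (ENSDARG00000103594, chromosome 13, 11975954 to 11986754), a nucleolar chaperone, stood at 148, 148 and 126 CPM in the unablated and 430, 475 and 446 CPM in the ablated libraries (1.68 ± 0.17). Its relative npm1a stood at 275, 331 and 168 CPM against 838, 985 and 1049 CPM (1.94 ± 0.29). Both ranges were wide apart. The methyltransferase gene fbl (1.51 ± 0.18), the small nucleolar RNA partners nhp2 (1.71 ± 0.20) and dkc1 (1.63 ± 0.20), nop2 (1.42 ± 0.18) and rrs1 (1.62 ± 0.21) passed too. Ribosomal proteins themselves differed by far less. Of 90 tested genes of the cytosolic ribosome, 71 were higher and 3 lower in all 3 dates, but 48 and 6 with DESeq2's size factors, and their median log2 fold change of 0.30 became 0.14 with that scaling. This list was built from symbols and also holds kinases of a ribosomal protein, rps6kal and rps6kc1, among its 3 lower members. The ribosomal protein relative rpl7l1 lay well above that median, at 66.8, 73.2 and 70.7 CPM against 166, 191 and 184 CPM (1.36 ± 0.17).

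Proteasome genes were higher by a smaller ratio. Of 37 tested genes of its constitutive subunits, 36 were higher in all 3 dates and 31 passed as higher. Their median log2 fold change was 0.83, with 0.94, 1.00 and 0.63 within dates, and 3 genes reached 2-fold in all 3. psma5 (ENSDARG00000003526, chromosome 11, 36342997 to 36350993), an α-ring subunit, stood at 151, 138 and 161 CPM in the unablated and 363, 414 and 387 CPM in the ablated libraries (1.37 ± 0.17). The groups were far apart against a small spread within each. The β-ring gene psmb7 (1.13 ± 0.17), the ATPase gene psmc3 (1.11 ± 0.17) and the lid gene psmd11b (1.32 ± 0.21) passed. Folate and purine enzymes were next, with 12 of 18 tested genes higher and 1 lower in all 3 dates (median 0.95). The serine hydroxymethyltransferase gene shmt1, which feeds the folate cycle, stood at 45.1, 53.2 and 55.5 CPM against 204, 261 and 245 CPM (2.21 ± 0.17). The first enzyme of purine synthesis, ppat, was 4.22- to 5.01-fold higher within dates (2.26 ± 0.24). mthfd1b (1.75 ± 0.21), gart (2.55 ± 0.57) and impdh2 (1.18 ± 0.21) of the same routes also passed.

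Genes of energy metabolism did not share 1 direction across lists and dates. Of 86 tested genes of oxidative phosphorylation, 39 were higher and 3 lower in all 3 dates. These counts became 12 and 6 with DESeq2's size factors and 18 and 4 with the photoreceptor genes left out of the library sizes. The median log2 fold change of the list was 0.25, with -0.02, 0.37 and 0.42 within dates 1, 2 and 3. atp5if1a, the inhibitor of the ATP synthase, was higher (1.32 ± 0.22) and passed. The cytochrome oxidase isoform gene cox4i2 was lower, at 352, 178 and 7.71 CPM against 72.1, 5.80 and 0.557 CPM (-3.66 ± 0.63), in the order of the photoreceptor shares of the controls (15.8%, 13.7% and 0.0943%). Of 25 tested genes of glycolysis, 6 were higher and 5 lower in all 3 dates, with a median of 0.02 that turned to -0.14 with DESeq2's size factors. The hexokinase gene hk2 was higher, at 16.1, 30.02 and 38.59 CPM against 61.8, 108 and 121 CPM (1.81 ± 0.20), and passed. The triose isomerase gene tpi1a was lower (-2.53 ± 0.45) and did not pass. Among 12 polyamine genes, 3 were higher and 4 lower in all 3 dates. The synthesis gene odc1 (1.48 ± 0.24) was higher and the breakdown gene sat1a.1, at 23.6, 17.7 and 26.6 CPM against 6.05, 1.66 and 2.81 CPM (-2.87 ± 0.49), was lower, and both passed.

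Among macrophage functions, matrix genes and proteases were higher more often than lower. Of 25 tested, 13 were higher and 5 lower in all 3 dates, 10 of them higher and 2 lower by at least 2-fold, and 7 passed as higher and 1 as lower. The metalloproteinase inhibitor gene timp2b (ENSDARG00000075261, chromosome 3, 57632965 to 57666996) stood at 6.41, 4.42 and 6.60 CPM in the unablated and 45.6, 60.6 and 124 CPM in the ablated libraries (3.62 ± 0.38). The sheddase gene adam8a stood at 3.03, 4.05 and 2.21 CPM against 23, 106 and 34.1 CPM (3.86 ± 0.47). Both groups were separated, and timp2b passed. The galectin gene lgals2a (1.62 ± 0.20) passed and the gelatinase gene mmp2 (1.85 ± 0.31) did not. mmp9, the other gelatinase, was not of 1 sign, at 0.734, 4.78 and 4.48 CPM against 12.6, 4.05 and 93.4 CPM (2.95 ± 1.27).

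Secreted signals and their receptors gave mixed counts. Of 19 tested cytokines and mediators, 5 were higher and 5 lower in all 3 dates. The chemokine gene ccl34a.4 stood at 100, 53.2 and 72.3 CPM in the unablated and 572, 613 and 401 CPM in the ablated libraries (2.83 ± 0.30) and passed. The inflammatory cytokine gene il1b was lower in every date, at 119, 99.6 and 90.1 CPM against 111, 60.1 and 36.8 CPM (-0.71 ± 0.29). Its groups overlapped, and it did not pass. Of 23 genes of chemokine reception and migration, 10 were higher and 4 lower in all 3 dates. The receptor genes cxcr3.2 (0.89 ± 0.16), ccr12b.2 (1.99 ± 0.26) and ltb4r (1.76 ± 0.37), the last for leukotriene B4, were separated between the groups and passed. Of 9 tested complement genes, 6 were higher and 1 lower in all 3 dates. The factor B homologue cfbl stood at 4.45, 4.36 and 16.7 CPM against 45.6, 49.5 and 89.6 CPM (3.09 ± 0.34), the properdin gene cfp was 1.70- to 4.51-fold higher (1.61 ± 0.34), and the C1q chain gene c1qc was 1.6- to 3.60-fold higher (1.22 ± 0.28). The 1 lower gene was itgam, the complement receptor chain, at 7.78, 13.5 and 70.5 CPM against 4.17, 2.03 and 19 CPM (-1.84 ± 0.47), highest where the epithelial share was highest.

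General macrophage genes had members in both directions. Of 27 genes of macrophage identity, 14 were higher and 5 lower in all 3 dates, and 8 passed as higher and 2 as lower, the latter being cd74a and cd74b. The medians within dates were 0.70, 0.43 and 0.06, the last of which became -0.06 with DESeq2's size factors. The summed share of the list, to which grn2 contributed much, was 1.53%, 4.07% and 7.90% of counts in the unablated and 2.66%, 2.53% and 4.24% in the ablated libraries, so it was higher after ablation in date 1 and lower in dates 2 and 3. The glycoprotein gene mfap4 stood at 537, 298 and 153 CPM in the unablated and 1030, 1204 and 1380 CPM in the ablated libraries (2.04 ± 0.49). The myeloid transcription factor gene spi1b stood at 525, 463 and 314 CPM against 948, 912 and 656 CPM (0.96 ± 0.15). In both the 2 groups were separated, while mpeg1.1 was not. The leukocyte phosphatase gene ptprc (1.18 ± 0.34), the cathepsin gene ctss2.1 (1.23 ± 0.19) and the granulin gene grn1 (1.35 ± 0.30) passed, and the growth factor receptor gene csf1ra (0.81 ± 0.25) did not.

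Genes of engulfment and degradation had no common direction. Of 25 tested genes of phagocytosis and efferocytosis, 5 were higher and 4 lower in all 3 dates. The scavenger receptor gene marco (1.07 ± 0.26) passed as higher, and the bridging protein gene mfge8b was lower without passing (-1.26 ± 0.29). Of 36 lysosomal hydrolases and cathepsins, 6 were higher and 3 lower, but 3 and 5 with DESeq2's size factors. Lysosomal acidification had 9 of 26 higher and 6 lower, but 5 and 6 with DESeq2's size factors. Its proton pump gene atp6v1ab stood at 292, 285 and 310 CPM against 605, 729 and 517 CPM (1.05 ± 0.19) and passed. Lipid handling leaned the other way, with 3 of 19 higher and 7 lower in all 3 dates. The phospholipid transfer gene pltp stood at 28, 32.1 and 21.7 CPM against 5.85, 2.58 and 4.12 CPM (-2.75 ± 0.45). mylipa, whose product degrades the LDL receptor, stood at 227, 174 and 65.4 CPM against 43.6, 7.33 and 1.91 CPM (-4.04 ± 0.68). Both were separated and both passed. The list of cholesterol synthesis and uptake had 6 of 24 higher and 5 lower.

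Antigen presentation genes were lower more often than higher, with 10 of 21 lower and 4 higher in all 3 dates. The invariant chain gene cd74a stood at 127, 34.3 and 418 CPM in the unablated and 67.9, 2.85 and 71.3 CPM in the ablated libraries (-2.35 ± 0.60), and cd74b was likewise lower (-1.77 ± 0.48). The activation marker gene cd83 (-1.65 ± 0.47) was lower in every date but did not pass. The list's medians were 0.00, -0.50 and -1.26 in dates 1, 2 and 3, the order of the epithelial share in the controls (0.138%, 0.783% and 2.19%), and the part of epithelial RNA in this was not tested. The class I gene mhc1zea went the other way, at 13.1, 16.8 and 9.65 CPM against 36.9, 49.9 and 39.8 CPM (1.70 ± 0.27). Of 17 interferon response genes, 3 were higher and 3 lower in all 3 dates, with a median of 0.08 that turned to -0.08 with DESeq2's size factors. Of 6 NADPH oxidase genes, 3 were higher and 0 lower. Oxidative stress and iron genes had 12 of 33 higher and 4 lower, but 11 and 10 with DESeq2's size factors, where their median of 0.12 became -0.04. Among them the glutathione genes gstp1 (1.08 ± 0.17) and gclc (1.02 ± 0.18) passed as higher, the lipid peroxidase gene gpx4a (-1.88 ± 0.29) passed as lower, and the haem oxygenase gene hmox1a (0.95 ± 0.25) was higher without passing.

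**Figure D4:**
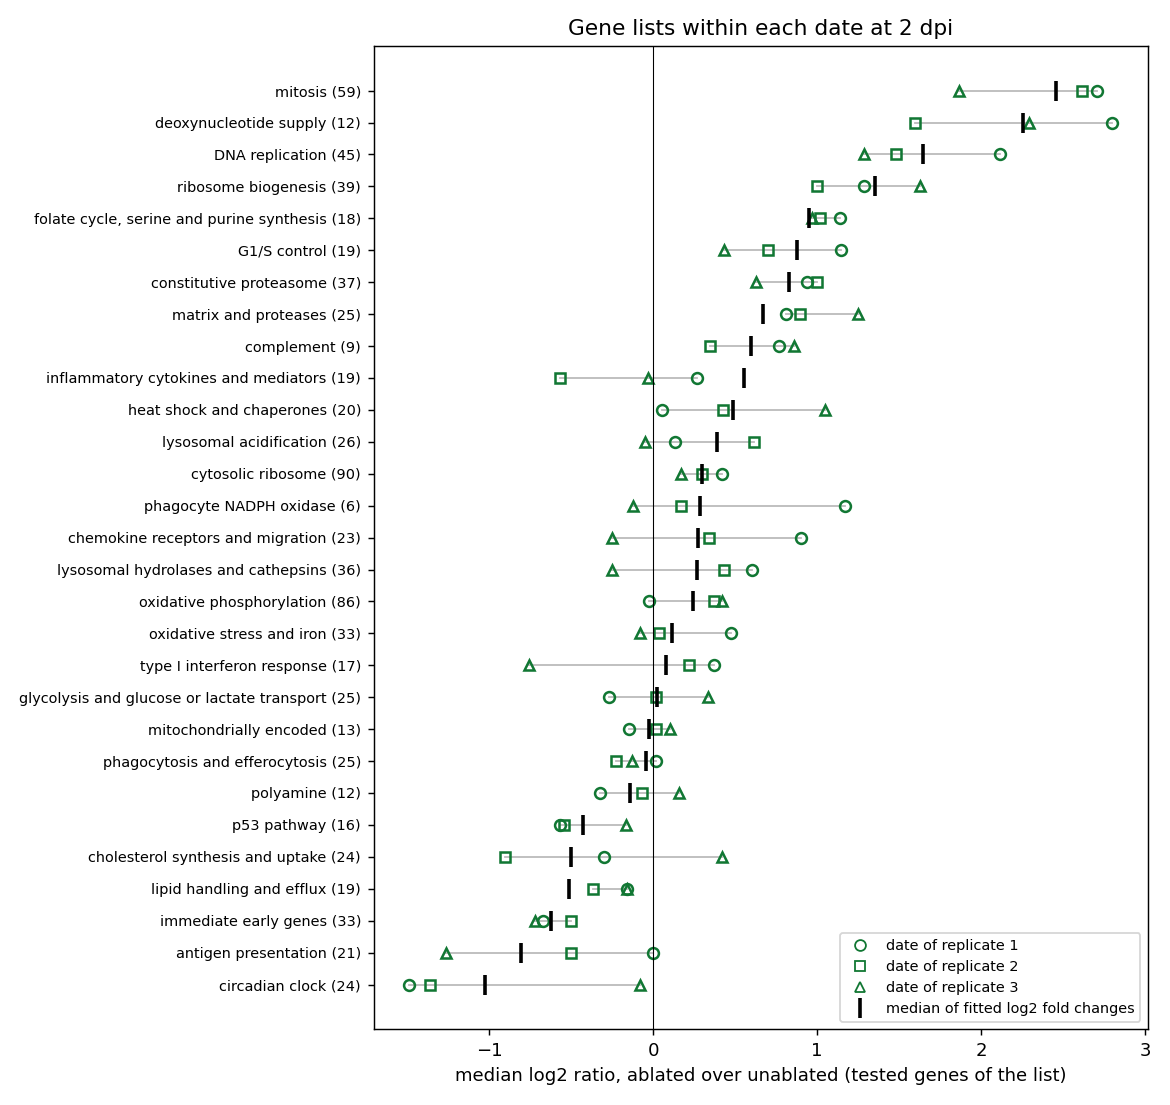
Median log2 ratio, ablated over unablated, of the tested members (number in brackets) of each list of cell division, growth, macrophage function and sample quality, within the dates of replicates 1 (circle), 2 (square) and 3 (triangle), with a black tick for the median of the fitted log2 fold changes. Lists of cell division, ribosome biogenesis and the proteasome lie above 0 in all 3 dates, and the circadian clock list is at -0.08 in date 3.

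Genes lower in all 3 dates with the smallest p had log2 fold changes from -10.77 to -1.56. For 8 of the 15 the groups did not overlap and for 7 they did. For 12 of the 15 the highest library was unablated replicate 1, that with 15.8% of photoreceptor counts and 0.688% of counts from inner retinal neurons. In the 12-library fit, which holds the libraries by which they were ranked, 11 passed. The neuronal gene nrgna, which encodes a calmodulin-binding postsynaptic protein in mammals, stood at 77.3, 8.10 and 0.0291 CPM in the unablated and 4.32, 0.430 and 0 CPM in the ablated libraries (-4.15 ± 0.44). The ankyrin gene ank2b stood at 133, 50.05 and 5.67 CPM against 23.1, 6.41 and 0.533 CPM (-2.95 ± 0.29). Both followed the retinal RNA of the controls, whose part in these differences was not tested. By the ranking rule all of these genes, ank2b included, were lower in date 3 too. map1lc3a (ENSDARG00000033609, chromosome 11, 26609110 to 26615608), the LC3 protein of autophagosomes, stood at 175, 58.4 and 44.5 CPM against 44.2, 12.2 and 9.93 CPM, which was 0.215 to 0.255 times the partner's level (-2.14 ± 0.20). The phosphatase gene ctdsp2 stood at 314, 128 and 108 CPM against 92.2, 26 and 18.1 CPM (-2.21 ± 0.24). g0s2, an inhibitor of triglyceride lipase, stood at 1837, 552 and 917 CPM against 439, 153 and 344 CPM (-1.78 ± 0.20). These 3 were separated between groups, map1lc3a only by 44.5 against 44.2 CPM, and passed. The controls of map1lc3a and ctdsp2 stood in the same order as those of nrgna and ank2b, while those of g0s2 did not. The part of retinal RNA in these differences was not tested either.

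Of the remaining lower genes, the antiproliferative gene btg2 stood at 87.1, 38.8 and 109 CPM in the unablated and 22, 8.47 and 16.4 CPM in the ablated libraries (-2.30 ± 0.26), separated and highest in unablated replicate 3. cxl34b.11, a chemokine-like gene, stood at 0.0979, 0.789 and 85.1 CPM against 0, 0 and 1.28 CPM and so rested on date 3. The chromatin protein gene hmgb3a (-2.83 ± 0.30), the membrane genes serinc1 (-1.59 ± 0.16), arl6ip5b (-1.97 ± 0.22) and lmbrd1 (-1.56 ± 0.18), the last a lysosomal cobalamin exporter, and the coronin gene coro1b (-2.99 ± 0.34) passed. The proton pump accessory gene atp6ap1a (-3.48 ± 0.40) and the potassium chloride cotransporter gene slc12a7b (-2.13 ± 0.24) did not.

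Immediate early genes, which answer within minutes to stimulation and to cell handling, were mostly lower. Of 33 tested, 18 were lower and 4 higher in all 3 dates, with a median log2 fold change of -0.62 and medians of -0.67, -0.50 and -0.72 within dates. fosab (ENSDARG00000031683, chromosome 20, 46552311 to 46554440) stood at 1118, 634 and 379 CPM in the unablated and 690, 329 and 198 CPM in the ablated libraries (-0.86 ± 0.16). egr1 (ENSDARG00000037421, chromosome 14, 21332522 to 21336385) stood at 1218, 602 and 208 CPM against 596, 313 and 119 CPM (-0.93 ± 0.15). Levels differed more between dates than between conditions, so the groups overlapped although each ablated library held about the same fraction of its partner's level. That fraction was 0.519 to 0.617 for fosab, 0.489 to 0.573 for egr1 and 0.528 to 0.560 for ier2a (-0.88 ± 0.15). ier5 was separated between the groups (-0.99 ± 0.16), and egr1, ier2a, ier5 and btg2 were the 4 of the list that passed. Heat shock genes did not share this direction, with 9 of 20 higher and 2 lower in all 3 dates. The mitochondrial chaperone genes hspd1 (1.64 ± 0.25) and hspe1 (1.59 ± 0.29) passed as higher.

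Of 16 p53 pathway genes, 6 were lower and 3 higher in all 3 dates. The stress gene gadd45ba stood at 186, 103 and 97.1 CPM against 59.1, 38.8 and 33.5 CPM (-1.53 ± 0.19), and tp53inp1 stood at 34.1, 17.7 and 16.4 CPM against 8.86, 4.48 and 2.98 CPM (-2.13 ± 0.35). Both were separated and passed. The kinase inhibitor gene cdkn1a was higher, at 4.16, 2.89 and 7.24 CPM against 14.3, 9.51 and 15.6 CPM (1.53 ± 0.43), without passing. Circadian clock genes, which depend on the hour of collection, were lower in all 3 dates for 14 of 24 and higher for 0. Their medians were -1.49 and -1.36 in dates 1 and 2 and -0.08 in date 3. The repressor gene cry2 kept a difference in date 3 (log2 -1.03 there, -1.35 ± 0.24 in the fit), while that of nr1d2b was -1.70, -1.38 and -0.25 and that of dbpb -2.04, -0.59 and -0.82. None of the 24 passed, and the sources used here do not give the hour of sampling.

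Of 22 tested microglial genes, 10 were lower and 4 higher in all 3 dates (12 and 2 with DESeq2's size factors). Their median log2 fold change of -0.23 turned to 0.11 with limma on log2(TPM + 1). The transcription factor gene bhlhe40 stood at 923, 414 and 166 CPM in the unablated and 257, 85.1 and 91.1 CPM in the ablated libraries (-1.67 ± 0.33). Its relative bhlhe41 stood at 697, 169 and 152 CPM against 193, 90.5 and 60.2 CPM (-1.36 ± 0.25). Unablated replicate 1 was highest in both, the groups overlapped, and both passed. The apolipoprotein gene apoeb stood at 26721, 13554 and 11775 CPM against 22517, 6203 and 6222 CPM (-0.77 ± 0.22) and did not pass, and apoc1 did (-1.42 ± 0.35). The ectonucleotidase gene entpd1 was 1.57- to 1.70-fold higher within dates (0.71 ± 0.15) and passed. The receptor gene p2ry12, a microglial marker, was of mixed sign, at 37.5, 47.5 and 37.9 CPM against 58.2, 74.6 and 34.4 CPM (0.38 ± 0.26).

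Of 14 tested genes linked to neutrophils, 8 were higher and 1 lower in all 3 dates (7 and 2 with DESeq2's size factors), and 5 passed, all as higher. Their medians within dates were 1.27, 1.3 and 1.75. scpp8 stood at 1.71, 1.52 and 0 CPM in the unablated and 114, 56.2 and 118 CPM in the ablated libraries (6.90 ± 1.57). nccrp1 stood at 78.0, 89.9 and 82.2 CPM against 236, 358 and 281 CPM (1.79 ± 0.18). The granule proteoglycan gene srgn (2.08 ± 0.27) and the interleukin 6 receptor gene il6r (1.50 ± 0.27) were higher too, and these 4 and timp2b were the 5 that passed. timp2b stands in the matrix list as well. The defining peroxidase gene mpx stood at 0 CPM in the 3 unablated libraries and at 7.76, 0 and 31.3 CPM in the ablated ones, and was not tested. It was at 0 in ablated replicate 2, and scpp8, nccrp1 and srgn were higher in that library than in its partner. The part of neutrophils in these differences was not tested. The summed share of the list was 0.0526%, 0.0672% and 0.130% in the unablated and 0.117%, 0.128% and 0.157% in the ablated libraries.

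Markers of retinal cells were lower more often than higher, by ratios that differed between dates. Of 60 tested photoreceptor genes, 20 were lower and 0 higher in all 3 dates, with medians of -3.24, -5.88 and 0.00 within dates. The cone transducin gene gnat2 stood at 3786, 5504 and 0.0291 CPM in the unablated and 807, 119 and 0.121 CPM in the ablated libraries (-2.86 ± 1.42), so that date 3 had the opposite sign. The blue cone opsin gene opn1sw2 was lower in every date, at 4469, 7494 and 366 CPM against 619, 357 and 107 CPM (-3.00 ± 0.58). Neither passed, and of the 60 photoreceptor genes 0 passed. The 12-library fit also holds the spread at 4 dpi. There photoreceptor genes gave 4.19% of counts in ablated replicate 2, and 0.0596% and 0.0498% in ablated replicates 1 and 3. The absence of passing genes therefore says little about the 2 dpi pairs. Of 31 inner retinal neuron genes, 16 were lower in all 3 dates and 0 higher, and 13 were lower by at least 2-fold in all 3. Their medians within dates were -2.65, -4.01 and -0.36. Among the 16 were the synaptic gene snap25b, at 1948, 477 and 15.7 CPM against 199, 7.27 and 0.0969 CPM (-5.37 ± 0.94), and the eye field gene pax6a (-4.51 ± 1.33). Of 13 Müller glia genes, 5 were lower and 0 higher. The glutamine synthetase genes glula (-0.85 ± 0.19) and glulb (-2.04 ± 0.35) were among these 5. Epithelial genes were lower for 9 of 30 in all 3 dates and 14 of 30 with DESeq2's size factors, with medians of -0.16, -1.63 and -2.14 and epcam at -2.22 ± 1.27. Of 11 tested RPE genes, 2 were lower and 1 higher in all 3 dates, the higher one being the transcription factor gene mitfa, at 5.14, 7.36 and 3.69 CPM against 13.5, 26.6 and 24.6 CPM (1.99 ± 0.44). Lymphocyte genes had 0 of 7 of 1 sign in either direction. The vascular list had 1 of 12 higher and 3 lower, the lens list 1 of 4 higher, the pigment cell list 2 of 7 higher and 1 lower, and the erythrocyte list no tested member.

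The same contrast at 4 dpi rested on 6 other libraries, all of 1 date, so that time, larval age and date cannot be told apart in the difference between the times. Tested over all 12 libraries, that difference passed for 1 of 18079 genes (0.00553%), an uncharacterised gene, and for none of the genes named above. Medians at 4 dpi were 4.17 for mitosis, 1.99 for DNA replication, 0.65 for the proteasome and 0.46 for ribosome biogenesis, beside 2.46, 1.65, 0.83 and 1.35 at 2 dpi. ccnb1 had a log2 fold change of 3.02 at 2 dpi and 8.76 at 4 dpi (difference -5.69 ± 0.89, edgeR adjusted p = 0.230). ctdsp2 stood at -2.21 and -0.33 (difference -1.81 ± 0.24, edgeR adjusted p = 0.176) and egr1 at -0.93 and -2.51 (1.66 ± 0.22, edgeR adjusted p = 0.176).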

How the data were processed

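Counts per gene and TPM values were deposited by the authors for 25281 genes in 12 libraries, per the file headers. The submitters' processing notes name GRCz11, with aligner, counting program and annotation not given in the sources used here. Libraries were made with SMART-Seq HT and Nextera XT, per the labels' protocols, kits that do not mark strand, so reads of overlapping genes and close paralogs cannot be assigned with certainty, and amplified reads are not independent molecules. Counts were fitted with edgeR 4.0.16 (robust quasi-likelihood, TMM, default filter, Benjamini-Hochberg 0.05) in R 4.3.3, with the title date as a block. Same-date libraries share replicate number and title date; after removal of group means they correlated at r = 0.63, -0.01 and 0.60 (other pairs -0.64 to 0.30). The sources used here do not say what a title date refers to. Without the block 0 genes were called as well. Alternatives were no block, DESeq2 size factors, photoreceptor genes left out of library sizes, no filter, a strict filter (1 CPM in 3 libraries and a mean of 50 counts), DESeq2 1.42.0, limma 3.58.1 both as voom with sample quality weights and on log2(TPM + 1) for genes with TPM of at least 1 in 3 libraries, all 12 libraries with date as the block, and omission of each date's pair. Log2 ratios within dates used CPM + 0.5. The members and the 42 gene lists were chosen with earlier results of these data known; 1004 of 1049 written entries were found, 12 through reference name tables, and 4 lists were built from the form of the symbol. Named genes were, per direction, the 15 smallest unadjusted p among genes of 1 sign in all 3 dates, at least 10 CPM in the higher condition, with a symbol that is no placeholder and outside the photoreceptor list. From each list came the first 4 tested members and up to 4 more with the smallest p, of which the text gives a part. Markers of the sort and of the ablation (mpeg1.1, csf1ra, ptprc, rpe65a, rlbp1b, gnat2, epcam and mpx) were always named, 1 further marker is not reported here, and grn2, rps6kal and rps6kc1 were added after their values were seen. No sequence table was used here.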

Additional observations from a re-analysis of the deposited data

Results flagged for a closer look

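The difference between the effects at 2 and 4 dpi passed for si:dkey-262j3.7 (ENSDARG00000104141, GRCz11 chromosome 14, 2119162 to 2202652), an uncharacterised gene. It gave 400, 38 and 493 counts in unablated replicates 1 to 3 at 2 dpi and 0 counts in each of the 3 ablated libraries. At 4 dpi it stood at 18.4, 13.9 and 14.8 CPM in the unablated and 11.6, 16.1 and 19.9 CPM in the ablated libraries. Over a floor of 3 counts per library, its mean CPM was at least 136-fold lower after ablation at 2 dpi. That bound compares group means, and within date 2, with 38 counts (1.98 CPM) in the control, it was smaller. The fitted difference of the log2 effects was -11.54 (SE 0.74, edgeR adjusted p = 0.0305), which with 0 counts in a group depends on the fit's prior count. The adjusted p was 0.0886 without the date block and 0.0263 with DESeq2's size factors.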

How the results depend on the processing

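With the date block removed, which is the fit without pairing, edgeR called 0 genes (smallest adjusted p = 0.0726) and the difference between the times passed for 0. Genes called higher and lower numbered 1340 and 2106 in DESeq2, 1156 and 1152 in voom, 1161 and 221 in limma on TPM, and 1420 and 324 in the 12-library fit, against 0 and 0. Of the list medians under all alternatives, 437 moved by less than the list's own spread over dates and 55 by more. That spread was 0.089 for folate and purine synthesis and 2.94 for photoreceptors. A list uneven between dates could thus hardly count as moved, and the split does not measure stability. With limma on TPM the medians were 0.11 for microglia, -2.10 for neurons, 1.94 for neutrophils, -0.46 for lens, 1.05 for folate and purine synthesis, 0.038 for cytokines, 1.78 for matrix, 0.12 for phagocytosis, -0.19 for lipid handling, -0.43 for immediate early genes, -0.20 for p53, 0.47 for the ribosome and 0.14 for mitochondrially encoded genes. With DESeq2's size factors, folate and purine synthesis stood at 0.79, phagocytosis at -0.20, lipid handling at -0.68, immediate early genes at -0.78, the ribosome at 0.14 and mitochondrially encoded genes at -0.19, as they did in DESeq2 except for lipid handling. Folate and purine synthesis was at 0.86 without photoreceptor genes in the library sizes. Without a filter, pigment cells stood at -4.66, cytokines at -0.0049, matrix at 0.14 and immediate early genes at -0.86. The strict filter gave 0.84 for folate and purine synthesis, -0.68 for cytokines and 1.51 for matrix. Without the block, cytokines were at 0.071 and p53 at -0.19, and voom put cytokines at 0.055. Leaving out 1 date at a time gave 0 calls each and medians of -5.22 to -1.26 for RPE, -2.81 to -1.30 for Müller glia, -0.64 to 0.60 for vascular, -3.54 to -0.14 for lens, -3.45 to -0.13 for pigment cells, 0.84 to 1.09 for folate and purine synthesis, -0.56 to 0.52 for cytokines, 1.09 to 1.21 for matrix, -0.34 to 0.046 for phagocytosis, -0.49 to -0.32 for lipid handling, -0.81 to -0.71 for immediate early genes and 0.62 to 0.96 for the proteasome. mpeg1.1 was at -0.0016 without the block, -0.15 with DESeq2's size factors and in DESeq2, -0.080 without photoreceptor genes, -0.044 without a filter, -0.10 with the strict filter and -0.33 to 0.24 with 1 date left out. The cause of these moves was not tested. Many retinal genes had few or no counts in date 3, where a difference in them was not detectable at this depth.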
